A study of Mus musculus with 14 samples.

Results

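The disease-associated microglia genes examined here were 10 genes chosen by name: Trem2, Tyrobp, Apoe, Lpl, Cst7, Gpnmb, Itgax, Cd9, Spp1 and Ccl6. Of the 14329 genes in the deposited values, 9 of the 10 were measured, and all 9 passed a filter of 10 or more reads in 7 or more of the 14 libraries, as did 12645 genes in all. Gpnmb was not analysed here. Microglia were sorted as CD45low CD11b+ CX3CR1+ cells from the dorsal part of the lumbar spinal cord, 2000 cells a library, and profiled by bulk RNA-seq. The 6-month-old mice, of both sexes, received K/BxN serum, which transfers an inflammatory arthritis (K/BxN ST), or pooled serum of KRN/C57 mice (Control ST), and tissue was taken on the fifth day. TASTPM mice were heterozygous for human transgenes, among them APP carrying the Swedish mutation, under the Thy-1 promoter, which is active in neurons. WT mice came from the same C57BL/6J colony by backcrossing and held no human transgene. There were 4 libraries each of TASTPM K/BxN ST and WT K/BxN ST, and 3 each of TASTPM Control ST and WT Control ST. Libraries are named below by their order among the deposited values. The labels do not give the sex of a library, and the study counts its replicates as separate mice.

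As background, disease-associated microglia are a state first described around amyloid plaques, in which homeostatic genes go down and genes for phagocytosis, lysosomes and lipid handling go up. The lipid receptor TREM2 signals through the adaptor TYROBP and is needed for the full programme, whereas Apoe and Tyrobp belong to its early, TREM2-independent step. The same genes are induced in other settings of myelin or neuronal damage.

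The libraries held 14223015 to 20239175 reads on genes. All 7 microglia markers were present in every library, and their summed level was 217303 to 858508 normalized counts, the read count divided by 1 factor for the library. The labels give the sort as CD45low CD11b+ CX3CR1+ alone, whereas the study's supplement describes a gate that also kept to Ly6C- and CCR2- cells, which should remove classical monocytes. Of the 8 K/BxN ST libraries, 4 stood apart: libraries 1 and 2 of TASTPM K/BxN ST and libraries 1 and 2 of WT K/BxN ST. Their 10 classical monocyte markers summed to 101966 to 196650 normalized counts, against 23.5 to 1263 in the other 10 libraries, and each of the 10 markers was higher in all 4 than in any other library. Within the other 10 libraries, Vcan was at 0 in 7 and Itgal in 3. Microglia markers summed to 217303 to 523610 in those 4 and to 635460 to 858508 in the others. Dendritic cell markers summed to 1771 to 8823 against 117 to 374, with 4 of the 6 above every other library (Flt3, Clec9a, Cd209a and Cd24a, but not Zbtb46 and Itgae), Cd209a at up to 6678 and Clec9a at 0 in the other 10. Neutrophil markers reached 205326 to 235027 in 3 of the 4, and were at 10440 in WT K/BxN ST library 2. Since the 4 libraries were all K/BxN ST, each member's averaged serum difference is given below with and without them, which leaves 2 K/BxN ST libraries in each genotype, and the part of monocyte transcripts in a member's level was not tested. WT Control ST library 3 stood apart in 5 red cell markers, at 41819 normalized counts against 508 to 4571 in the other 13. In bulk samples, fewer cells of a type and less RNA per cell cannot be told apart.

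Promoters are shown for 4 members: Cst7 and Itgax, whose WT groups did not overlap, Spp1, with the widest range, and the receptor gene Trem2. Each runs from 250 bases before to 50 bases after the start site in the RefSeq table for GRCm38.p6, and its place in GRCm39, the build of the files, was found by exact match. Capitals mark the letters GAGGAA, the core bound by the myeloid factor PU.1, and TGANTCA, the site of the AP-1 factors, searched on both strands. Over 32851 mouse promoters of the same length, 28.3% held GAGGAA and 7.81% held TGANTCA.
Trem2, chr17:48653179-48653478, plus strand, GRCm39: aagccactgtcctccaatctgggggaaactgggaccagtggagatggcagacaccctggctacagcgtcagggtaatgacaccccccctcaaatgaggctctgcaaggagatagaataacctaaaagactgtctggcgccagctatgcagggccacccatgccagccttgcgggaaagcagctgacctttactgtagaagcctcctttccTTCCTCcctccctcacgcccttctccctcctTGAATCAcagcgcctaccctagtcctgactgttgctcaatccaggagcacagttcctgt
Cst7, chr2:150412085-150412384, plus strand, GRCm39: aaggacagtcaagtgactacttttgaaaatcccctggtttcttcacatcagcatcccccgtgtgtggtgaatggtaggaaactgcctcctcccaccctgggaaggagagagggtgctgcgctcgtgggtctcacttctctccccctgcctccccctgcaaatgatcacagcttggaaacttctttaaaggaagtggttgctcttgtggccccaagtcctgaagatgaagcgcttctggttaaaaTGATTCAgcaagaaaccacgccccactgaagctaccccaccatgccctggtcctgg
Itgax, chr7:127728472-127728771, plus strand, GRCm39: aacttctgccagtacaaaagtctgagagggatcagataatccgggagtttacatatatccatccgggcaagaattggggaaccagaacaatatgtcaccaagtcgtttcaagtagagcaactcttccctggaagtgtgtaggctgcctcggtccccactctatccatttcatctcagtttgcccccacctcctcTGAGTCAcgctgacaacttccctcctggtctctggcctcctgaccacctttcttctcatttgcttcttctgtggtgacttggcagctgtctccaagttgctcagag
Spp1, chr5:104582727-104583026, plus strand, GRCm39: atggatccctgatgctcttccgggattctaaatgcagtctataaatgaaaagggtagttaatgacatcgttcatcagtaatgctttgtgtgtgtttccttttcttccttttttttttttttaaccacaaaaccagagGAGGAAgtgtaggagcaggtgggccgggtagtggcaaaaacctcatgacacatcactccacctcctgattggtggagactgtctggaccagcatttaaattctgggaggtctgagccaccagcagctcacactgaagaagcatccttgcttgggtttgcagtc
The PU.1 core of Trem2 lay on the minus strand 40 bases before the start site and its AP-1 site 9 bases before it, without overlap. The AP-1 sites of Cst7 and Itgax began 6 and 56 bases before the start, and the PU.1 core of Spp1 began 113 bases before it. Neither motif was found at a second Spp1 start site (chr5:104583808-104584107, GRCm39) or at the starts of Cd9 and Ccl6, while 2 of 3 Apoe windows held GAGGAA and that of Gpnmb held TGANTCA. These are matches of letters and no record of binding.

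Among the members, levels per length spanned a wide range. Length was the union of all annotated exons, 682 bases for Tyrobp and 4946 for Trem2, so these levels and their order depend on the annotation. Before division by length, mean normalized counts were 26578 for Tyrobp and 22902 for Trem2. Normalized counts per kilobase of exon averaged 38971 for Tyrobp, 11619 for Cd9, 5856 for Ccl6, 5179 for Apoe, 4630 for Trem2, 393 for Cst7, 318 for Spp1, 135 for Lpl and 53.5 for Itgax over the 14 libraries. Tyrobp was above Cd9 in 14 of 14 libraries with separate ranges, and so was Trem2 above Cst7. The order of Ccl6, Apoe and Trem2 was not fixed, since Ccl6 was above Apoe in 9 of 14 libraries and Apoe above Trem2 in 6. Likewise Cst7 was above Spp1 in 10, and Spp1 above Lpl in 8. By mean normalized count per gene, not corrected for length, Tyrobp ranked 63, Cd9 68, Trem2 78 and Apoe 85 among 14329 genes. In WT mice given control serum the group means of these abundant genes were 25791 ± 3492 for Tyrobp, 27598 ± 2349 for Cd9 and 27978 ± 7142 for Trem2 (normalized counts, SD, n = 3).

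**Figure D1:**
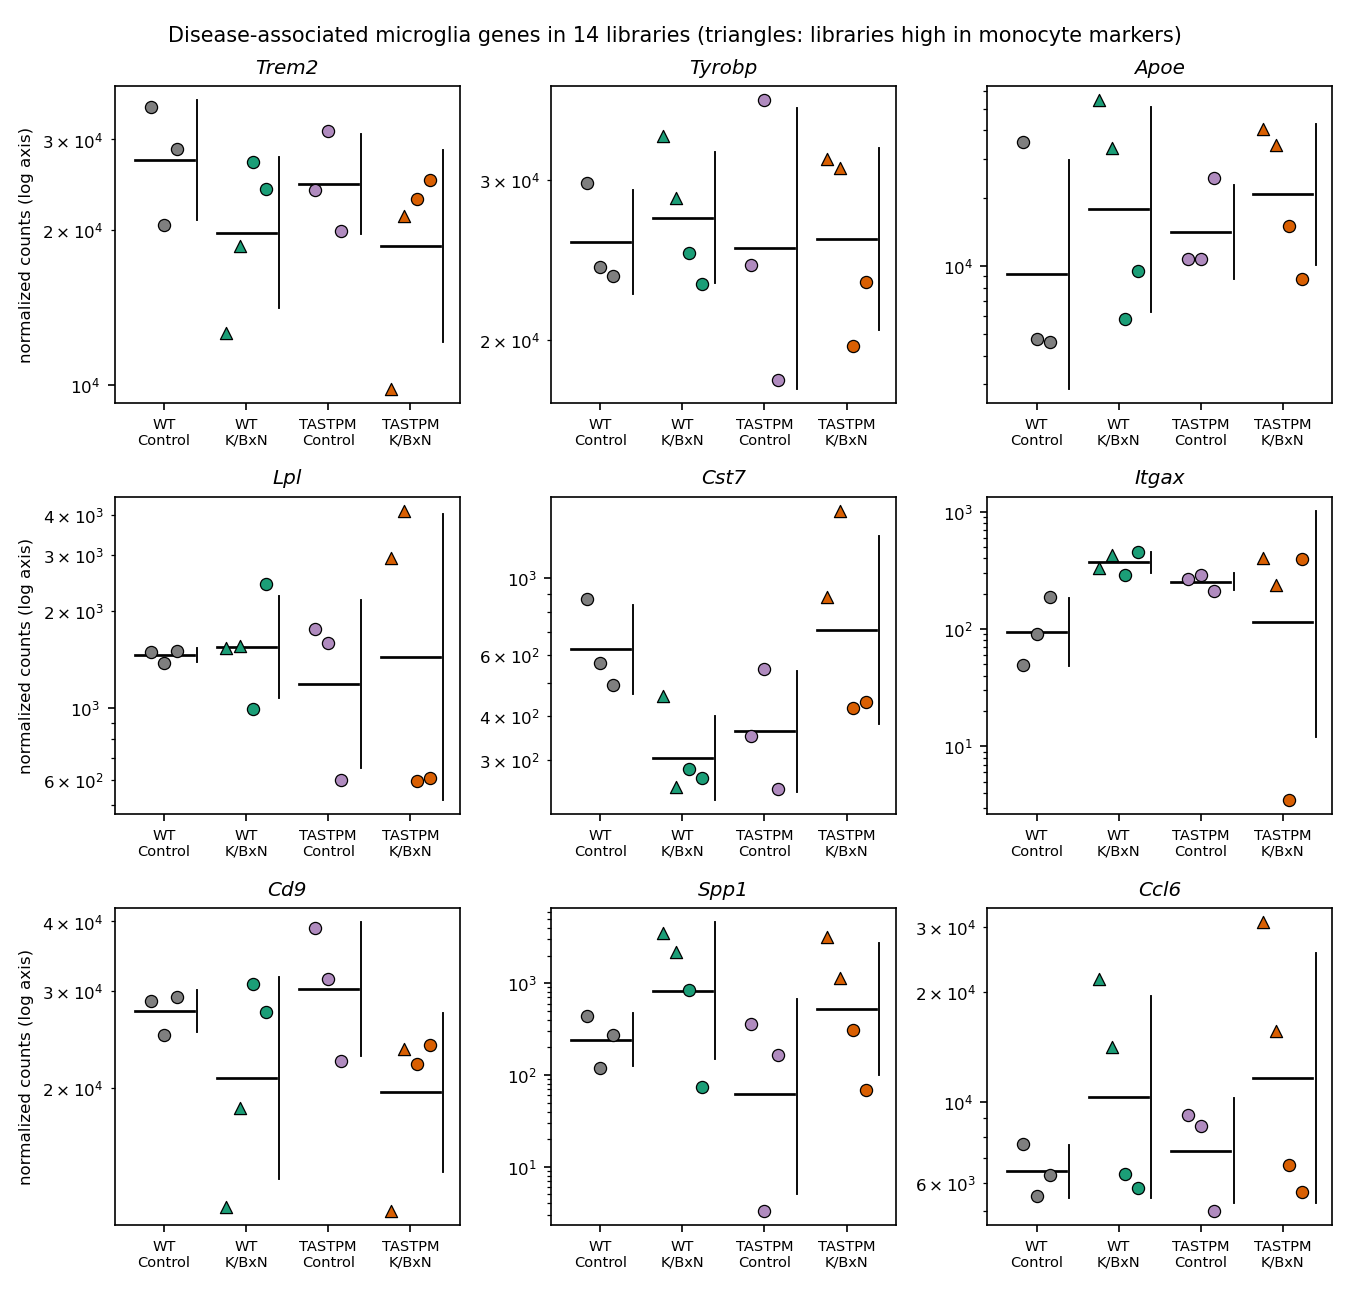
Normalized counts on log axes of the 9 measured members (1 panel each) in the 14 libraries by group; horizontal bars are means and vertical lines 1 SD, both on the log2 scale, and triangles are the 4 libraries high in monocyte markers. The triangles top both K/BxN ST groups for Ccl6, Spp1 and Apoe, whereas Cst7 and Itgax separate WT K/BxN ST from WT Control ST.

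The study asked how serum transfer and the TASTPM genotype change dorsal horn microglia, and each was compared for every member. Averaged over both genotypes, K/BxN ST against Control ST called 0 of the 9 members with limma (Benjamini-Hochberg adjusted p below 0.05 and log2 fold change beyond 1), where 0% of all 12645 tested genes were called. At an unadjusted p below 0.05 there were 2 members, Spp1 and Cd9, against 9.25% of all genes. The members' median log2 fold change was 0.18, with 6 of 9 above 0, and the median of all genes was 0.03, with 53.1% above 0. TASTPM against WT, averaged over both sera, also called 0 of 9 members and 0% of genes, with 0 members at an unadjusted p below 0.05 against 4.68% of genes. There the members' median was −0.05, with 4 of 9 above 0, and that of all genes 0.02. Neither edgeR nor DESeq2 on the recovered reads called a member in these averaged comparisons, or Trem2, Cst7, Itgax, Cd9 or Spp1 in the other 5 comparisons. A p that misses the threshold does not show equal levels, and the median SE of a member in either comparison was 0.385 on the log2 scale.

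**Figure D2:**
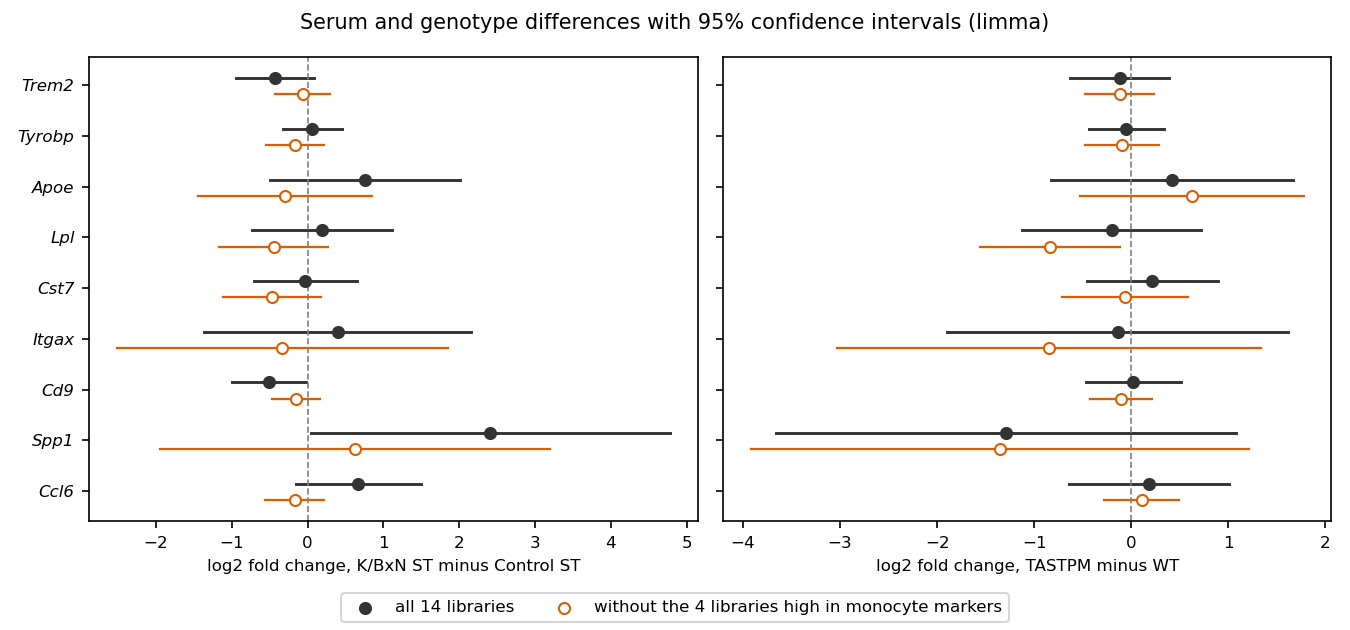
Log2 fold changes of the 9 members for K/BxN ST against Control ST (left, averaged over genotypes) and TASTPM against WT (right, averaged over sera), with 95% confidence intervals from limma; filled points use all 14 libraries and open points leave out the 4 libraries high in monocyte markers. Without those libraries Apoe, Ccl6, Lpl, Itgax and Tyrobp pass from above 0 to below 0 in the serum difference, and Spp1 moves from 2.41 to 0.62.

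Trem2 and Tyrobp, the receptor and its adaptor, were high in every library. Trem2 (chr17:48653429-48661175, GRCm39) was at 34698, 20478 and 28759 normalized counts in WT Control ST and at 12665, 18617, 27147 and 24001 in WT K/BxN ST. In TASTPM it was at 23986, 31095 and 19971 with Control ST and at 9858, 21307, 23026 and 25021 with K/BxN ST. The lowest values, 9858 and 12665, were those of library 1 of each K/BxN ST group, both high in monocyte markers, and the groups overlapped. The log2 fold change was −0.43 for serum (SE 0.24, 95% interval −0.94 to 0.08, limma adjusted p = 0.575) and −0.07 without the 4 libraries. For genotype it was −0.12 (95% interval −0.63 to 0.39, adjusted p = 1.00). Within groups, serum gave Trem2 −0.47 in WT and −0.40 in TASTPM, which were −0.099 and −0.0357 without the 4 libraries, genotype −0.15 in Control ST and −0.086 in K/BxN ST, and the interaction was 0.066. Tyrobp (chr7:30113170-30117010) ranged from 18089 to 36720, both extremes lying in TASTPM Control ST, with group means of 25791 ± 3492 in WT Control ST, 27565 ± 4638 in WT K/BxN ST, 26336 ± 9498 in TASTPM Control ST and 26363 ± 5876 in TASTPM K/BxN ST (SD, n = 3 or 4). Its log2 fold change was 0.06 for serum (SE 0.18, adjusted p = 0.924), −0.17 without the 4 libraries, and −0.05 for genotype. Over the 10 libraries low in monocyte markers, Trem2 and Tyrobp had a Pearson r of 0.78 on the log2 scale, and over all 14 of −0.20. This was not particular to the pair, since Cd9 and Ccl6 also had 0.78 over the 10 libraries, and −0.72 over all 14.

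Apoe and Lpl act on lipids, Apoe as the carrier that takes lipids out of glia and Lpl as the lipase that releases fatty acids from lipoproteins. Apoe (chr7:19430034-19434947) was the more uneven of the pair, at 35416, 4745 and 4624 normalized counts in WT Control ST and at 54391, 33549, 5833 and 9523 in WT K/BxN ST. In TASTPM it was at 10722, 10713 and 24724 with Control ST and at 40803, 34491, 15141 and 8809 with K/BxN ST. The 4 libraries high in monocyte markers held 33549 to 54391 and the other 10 held 4624 to 35416, where WT Control ST library 1 was the one that reached into the upper range. The serum log2 fold change was 0.76 (SE 0.58, 95% interval −0.49 to 2.01, limma adjusted p = 0.679), and it was −0.30 without the 4 libraries. It was 0.49 without WT K/BxN ST library 1 and 1.24 without WT Control ST library 1. For genotype, Apoe gave 0.42 on the log2 scale, which was −0.014 in edgeR and −0.0138 in DESeq2. It was 0.91 without WT Control ST library 1 and 0.63 without the 4 libraries.

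Lpl was steady in WT Control ST, at 1499, 1382 and 1508 normalized counts, and spread in TASTPM K/BxN ST, at 2932, 4091, 596 and 607. WT K/BxN ST held 1543, 1559, 995 and 2432, and TASTPM Control ST 1761, 1599 and 597. Its highest values were thus in the pair of TASTPM libraries high in monocyte markers, though in WT the same kind of library did not stand out. The log2 fold change of Lpl was 0.18 for serum (SE 0.43, adjusted p = 0.902) and −0.20 for genotype (adjusted p = 1.00). Without the 4 libraries these were −0.45 and −0.83, the latter with an unadjusted p of 0.0269 and a limma adjusted p of 0.957.

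Cst7, which encodes cystatin F, an inhibitor of lysosomal cathepsins, was the 1 member whose K/BxN ST libraries were all below the Control ST mean in WT and all above it in TASTPM. The share of all genes with this pattern was not counted, so it is not known how often other genes show it. In WT Cst7 was at 870, 569 and 492 normalized counts with Control ST and at 459, 249.8, 282 and 265 with K/BxN ST, so that every K/BxN ST library was below every Control ST library. In TASTPM it was at 352, 548 and 246 with Control ST and at 882, 1560, 422 and 440 with K/BxN ST, where the groups overlapped and the highest values were libraries 1 and 2, both high in monocyte markers. WT K/BxN ST against WT Control ST gave a log2 fold change of −1.04 (SE 0.45, 95% interval −1.99 to −0.08, unadjusted p = 0.0360, limma adjusted p = 0.684). TASTPM K/BxN ST against TASTPM Control ST gave 0.97 (SE 0.45, 95% interval 0.01 to 1.93, unadjusted p = 0.0473, adjusted p = 0.964). Neither was called, nor was another member in these comparisons, where 0.00791% of genes were called in WT and 0% in TASTPM. At an unadjusted p below 0.05, Cst7 was 1 of 9 members in each, against 7.13% of genes in WT and 4.22% in TASTPM.

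The test of the difference between the genotypes, the interaction of genotype and serum, gave 2.01 for Cst7 on the log2 scale (SE 0.63, 95% interval 0.65 to 3.36, unadjusted p = 0.00658), with a limma adjusted p of 0.999. It called 0 of 9 members and 0% of genes, and 3.04% of genes had an unadjusted p below 0.05. Relative to the Control ST mean of their own genotype, all 4 WT K/BxN ST libraries were lower, by 0.44 to 1.32 on the log2 scale, and all 4 TASTPM K/BxN ST libraries higher, by 0.22 to 2.103. Without the 4 libraries high in monocyte markers the difference in WT was −1.19 and that in TASTPM 0.25, and the interaction was 1.44 (95% interval 0.14 to 2.74). Without TASTPM K/BxN ST library 2 alone, the TASTPM difference was 0.59. Between genotypes, Cst7 gave 1.22 in K/BxN ST (SE 0.42, unadjusted p = 0.0103, adjusted p = 1.00), which was 0.65 without the 4 libraries (SE 0.46, unadjusted p = 0.180), and −0.78 in Control ST (SE 0.48, adjusted p = 0.901), the latter −0.51 without TASTPM Control ST library 3. In K/BxN ST 0 members and 0% of genes were called, as in Control ST. At an unadjusted p below 0.05 Cst7 was 1 of 9 members in K/BxN ST, against 1.91% of genes, and 0 members were in Control ST, against 5.57%. Averaged over genotypes the serum difference of Cst7 was −0.03 (adjusted p = 0.978) with all libraries and −0.47 without the 4. Averaged over sera its genotype difference was 0.22, which was −0.0646 without the 4 and 0.0304 without TASTPM K/BxN ST library 2.

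**Figure D3:**
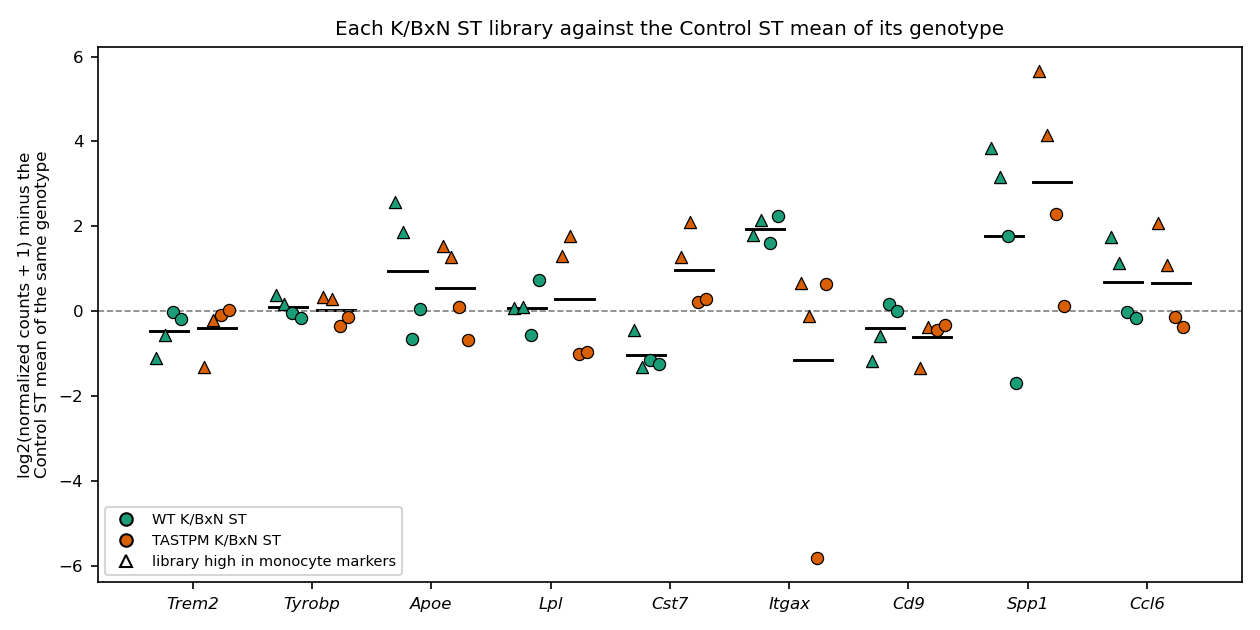
Log2(normalized counts + 1) of each K/BxN ST library minus the Control ST mean of its genotype, by member; bars are group means, and triangles mark libraries high in monocyte markers. Cst7 lies below 0 in all 4 WT and above 0 in all 4 TASTPM libraries, Itgax above 0 in all 4 WT libraries, and 1 TASTPM library of Itgax lies at −5.815.

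Itgax encodes the integrin CD11c, a complement receptor subunit, and Cd9 a tetraspanin that organises membrane receptors. Itgax was the least abundant member, at 49.7, 91.4 and 188 normalized counts in WT Control ST and at 331, 426, 290.3 and 451 in WT K/BxN ST, which did not overlap. TASTPM Control ST held 267, 290 and 211, all above WT Control ST. TASTPM K/BxN ST held 406, 236, 3.52 and 396, where library 3 rested on 3 reads. Itgax was thus higher in every WT K/BxN ST and every TASTPM Control ST library than in WT Control ST. In WT, 3.67% of genes were higher in K/BxN ST without overlap and 3.71% lower, and of the 9 members Itgax was higher in that way and Cst7 lower. Among Control ST libraries, 4.97% of genes were higher in TASTPM without overlap, and Itgax was the 1 member among them. The log2 fold changes of Itgax were 1.94 for serum in WT (SE 1.17, 95% interval −0.55 to 4.43, limma adjusted p = 0.742) and 1.41 for genotype in Control ST (SE 1.25, adjusted p = 0.964). With serum in TASTPM it was −1.15 (SE 1.17, adjusted p = 0.964), which turned to 0.40 without library 3 of TASTPM K/BxN ST, and the interaction of −3.10 (unadjusted p = 0.0805, adjusted p = 0.999) became −1.54. TASTPM against WT in K/BxN ST was −1.69 (adjusted p = 1.00) and −0.13 without the same library. Averaged over genotypes, the serum difference of Itgax was 0.40 (adjusted p = 0.891), and 1.17 without TASTPM K/BxN ST library 3. It was −0.33 without the 4 libraries high in monocyte markers. Without those 4 libraries, which leaves TASTPM K/BxN ST library 3 as 1 of 2, the serum difference was 1.92 in WT and −2.59 in TASTPM, TASTPM against WT in K/BxN ST was −3.10, and the interaction was −4.51 (unadjusted p = 0.0441, limma adjusted p = 0.998). Without WT Control ST library 3, the one high in red cell markers, the serum difference in WT was 2.43 for Itgax and −1.21 for Cst7.

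Cd9 (chr6:125437210-125471778) was at 28695, 24902 and 29199 normalized counts in WT Control ST and at 12174, 18367, 30807 and 27417 in WT K/BxN ST. In TASTPM it was at 38868, 31528 and 22382 with Control ST and at 11997, 23481, 22075 and 23926 with K/BxN ST. As for Trem2, library 1 of each K/BxN ST group was lowest, and the Control ST and K/BxN ST libraries overlapped. The serum log2 fold change was −0.51 (SE 0.23, 95% interval −1.003 to −0.02, unadjusted p = 0.0437, limma adjusted p = 0.536), and −0.16 without the 4 libraries. The genotype difference was 0.02, with an adjusted p of 1.00, from 0.13 in Control ST and −0.086 in K/BxN ST. In WT alone the serum difference was −0.40, and the interaction was −0.22. Leaving out the 4 libraries, the serum difference in WT turned to 0.0782, the genotype difference in K/BxN ST was −0.34 and the interaction was −0.47. In TASTPM alone the serum difference of −0.62 (adjusted p = 0.964) was −0.38 without library 1 of K/BxN ST.

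Spp1 encodes osteopontin, a secreted ligand of integrins and CD44, and Ccl6 a chemokine of myeloid cells. Spp1 had the widest range of any member, from 3 reads (3.33 normalized counts, TASTPM Control ST library 2) to 3499 normalized counts. It was at 442, 119.9 and 270.3 in WT Control ST and at 3499, 2166, 837 and 74.1 in WT K/BxN ST. In TASTPM it was at 359, 3.33 and 165 with Control ST and at 3204, 1126, 309 and 68.8 with K/BxN ST. The 4 libraries high in monocyte markers held 1126 to 3499 and the other 10 held 3.33 to 837, without overlap. The serum log2 fold change of 2.41 (SE 1.11, 95% interval 0.04 to 4.78, unadjusted p = 0.0467, limma adjusted p = 0.536) was 0.62 without those 4 libraries and 1.44 without TASTPM Control ST library 2. With DESeq2 it was 2.66 with an adjusted p of 0.154, the lowest among the 43 of 63 member results followed through every fit. For genotype it was −1.29 (SE 1.11, adjusted p = 1.00), −0.32 without TASTPM Control ST library 2 and −0.81 without TASTPM K/BxN ST library 4. Within groups, serum gave Spp1 1.77 in WT (SE 1.57) and 3.05 in TASTPM (SE 1.57), and these were 0.0404 and 1.21 without the 4 libraries. Genotype gave −1.94 in Control ST and −0.65 in K/BxN ST, and the interaction was 1.28 (SE 2.22, limma adjusted p = 0.999). Without TASTPM Control ST library 2, the library with 3 reads, serum in TASTPM was 1.11, genotype in Control ST 0.0046 and the interaction −0.66.

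Ccl6 (chr11:83478708-83483913) was also highest in the libraries high in monocyte markers. It was at 7655, 5524 and 6299 normalized counts in WT Control ST and at 21674, 14150.2, 6324 and 5788 in WT K/BxN ST. In TASTPM it was at 9186, 8554 and 5027 with Control ST and at 30954, 15561, 6694 and 5647 with K/BxN ST. The 4 libraries high in monocyte markers held 14150.2 to 30954 and the other 10 held 5027 to 9186, so the remaining K/BxN ST libraries lay inside the range of the controls. The serum log2 fold change of Ccl6 was 0.67 (SE 0.38, limma adjusted p = 0.591), −0.17 without the 4 libraries and 0.43 without TASTPM K/BxN ST library 1. For genotype it was 0.18 (adjusted p = 1.00).

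**Figure D4:**
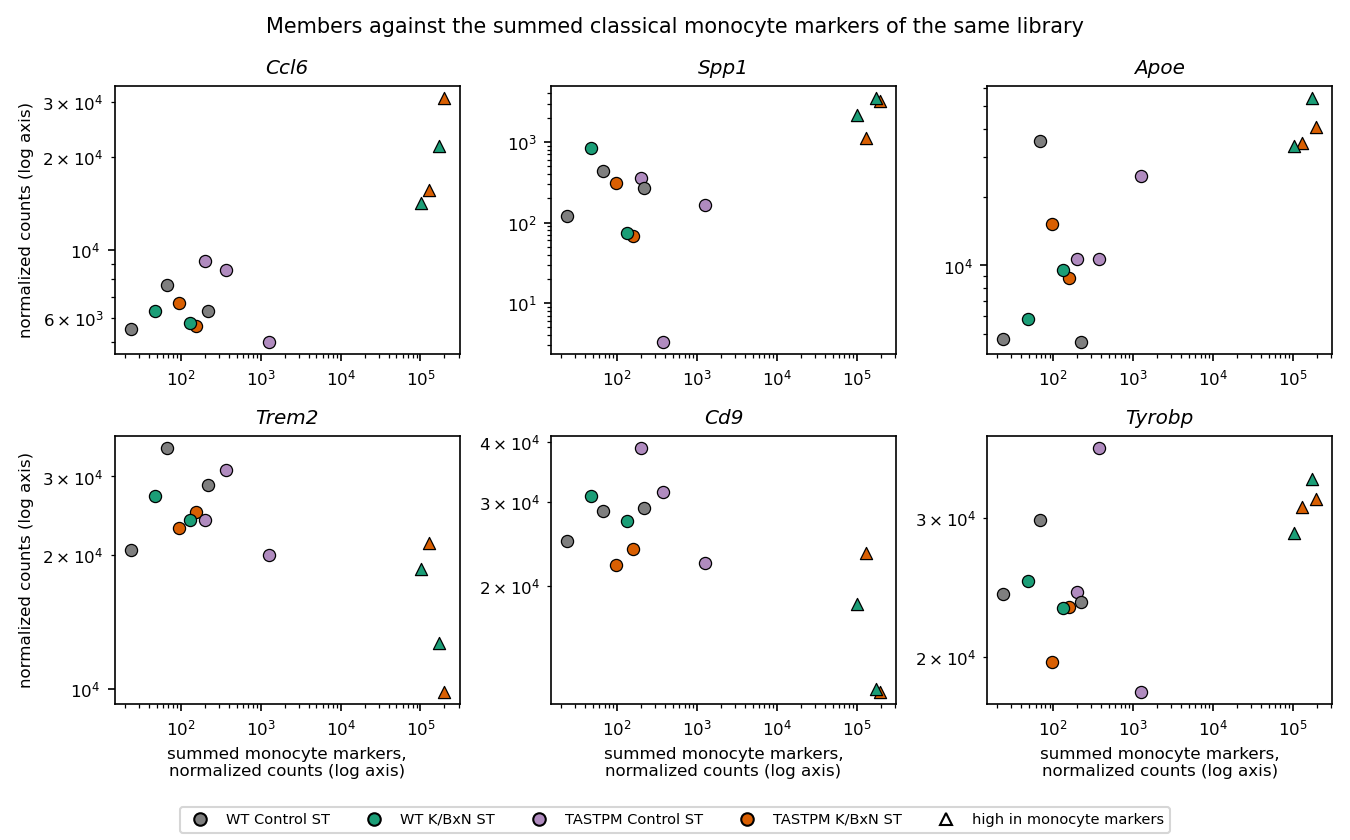
Normalized counts of 6 members against the summed normalized counts of 10 classical monocyte markers in the same library, both on log axes, coloured by group, with triangles for the 4 libraries high in those markers. Ccl6 and Spp1 are higher in all 4 of those libraries than in the other 10, and Trem2 and Cd9 reach their lowest values there.

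By likeness of the log2 levels over the 14 libraries, the gene with the highest Pearson r was Bsg for Trem2 (0.96), Atpif1 for Tyrobp (0.96), Hcst for Apoe (0.95), Ch25h for Lpl (0.89), Ifrd2 for Cst7 (0.83), Etfrf1 for Itgax (0.93), Camk1 for Cd9 (0.96), Lcp1 for Spp1 (0.91) and Arhgdib for Ccl6 (0.98). Over the 10 libraries low in monocyte markers the same pairs had r of 0.89, 0.95, 0.93, 0.88, 0.80, 0.95, 0.79, 0.83 and 0.91 in that order. Libraries share depth and cell makeup, so these values describe and do not test.

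The rest of the pathway was read from lists written by hand. Of 24 tested disease-associated genes beyond the members, 0 were called by limma in either direction in any of the 7 comparisons, and the same held for 10 genes of TREM2 signalling and shedding, 14 of lipid uptake and efflux, 14 integrin and tetraspanin partners, 9 chemokines and receptors related to CCL6, and 7 regulators. For serum, averaged over genotypes, the median log2 fold change was −0.10 for the 24 genes and −0.11 without the 4 libraries, against 0.03 and 0.02 for all genes. At an unadjusted p below 0.05, 2 of the 24 were higher with serum, Axl at 0.73 and Lilrb4a at 3.26 on the log2 scale, and 3 lower, Serpine2, Ctsl and B2m, where 5.79% of all genes were higher and 3.46% lower. With the 4 libraries left out, 0 were higher and 3 lower at that p, Ctsl, B2m and Lyz2, where 2.19% of all genes were higher and 1.94% lower. Of the 24 genes, 9 then had a log2 fold change above 0, the highest at 2.16, against 52.1% of all genes. Among the most abundant, the cathepsins Ctsd and Ctsb gave −0.49 (limma adjusted p = 0.594) and −0.19 (adjusted p = 0.761), and the lysozyme Lyz2, also a monocyte gene, 2.16 (adjusted p = 0.554). Without the 4 libraries these were −0.0201, −0.0495 and −0.52. The list medians for serum were −0.08 for TREM2 signalling, 0.05 for lipid uptake and efflux, −0.33 for integrin and tetraspanin partners, 0.64 for the chemokine list and −0.13 for the regulators, which include Spi1, the gene of PU.1, at 0.19 (adjusted p = 0.687). Without the 4 libraries these medians were 0.0529, −0.0964, 0.0271, −0.0847 and −0.0538, so that the first 4 changed sign, and Spi1 was −0.0538. In the chemokine list Ccr2, also one of the monocyte markers, gave 5.02 (SE 2.196, adjusted p = 0.536), and −0.26 without the 4 libraries. At an unadjusted p below 0.05 for serum, these 5 lists held 0, 3, 1, 2 and 0 genes with higher and 0, 0, 2, 1 and 0 with lower values, and none without the 4 libraries. For genotype the medians of all 6 lists lay between −0.13 and 0.02. Leaving out the 4 libraries, they were −0.04 for the 24 genes, 0.14 for TREM2 signalling, −0.0144 for lipid uptake and efflux, −0.05 for integrin and tetraspanin partners, −0.51 for the chemokine list and −0.04 for the regulators. At an unadjusted p below 0.05 there were then 2 of 9 chemokine list genes, both lower, 1 of the 24 genes, lower (Clec7a, −0.85), 1 of 14 lipid genes, lower (Cd36, −2.90), and 1 of 10 genes of TREM2 signalling, higher (Inpp5d, 0.26), where 2.38% of all genes were higher and 2.37% lower.

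The homeostatic genes, which the disease-associated state is known to lower, were measured for 16 of 16. None was called in any of the 7 comparisons with limma, and 4 of 16 had an unadjusted p below 0.05 for serum, all lower, P2ry12 among them at −0.69 (adjusted p = 0.536), where 3.46% of all genes were lower at that level. Without the 4 libraries 0 of 16 were. All 16 had a serum log2 fold change below 0, with a median of −0.50, where 53.1% of all genes were above 0, whereas without the 4 libraries high in monocyte markers 7 of 16 were above 0 and the median was −0.03. For genotype their median was −0.22, with 1 of 16 above 0 against 53.1% of all genes. With the 10 remaining libraries it was −0.15, with 4 of 16 above 0, and 5 of 16 had an unadjusted p below 0.05, P2ry12, P2ry13, Cx3cr1, Gpr34 and Olfml3, all lower by 0.32 to 0.49, where 2.37% of all genes were lower at that level and 0 of the 5 were called. With all libraries, 0 of 16 had an unadjusted p below 0.05 for genotype. Of 10 listed markers of border-associated macrophages, 5 passed the filter and 0 were called, and all 5 had genotype differences above 0, with a median of 1.997 with all libraries and 2.89 without the 4, where 3 had an unadjusted p below 0.05 (Mrc1 at 4.06, Cd163 at 3.41 and Cbr2 at 2.89). Without the 4, 51.5% of all genes were above 0 and 2.38% were higher at that p. These 3 rest on low values. In those libraries Mrc1 was at 0 to 118 normalized counts in WT and 32.2 to 599 in TASTPM. Cd163 was at 0 to 3.35 and 0 to 253.5, and Cbr2 at 0 to 18.7 and 0 to 121. The summed level of the list was 3230 to 3652 normalized counts in WT Control ST, 3716 to 5788 in WT K/BxN ST, 4459 to 7161 in TASTPM Control ST and 4270 to 6495 in TASTPM K/BxN ST, most of it Stab1 in the 10 libraries low in monocyte markers, and each of the other 8 measured markers was at 0 in 2 to 9 libraries. Their part in the homeostatic differences was not tested. The abundant Cst3 and Csf1r gave −0.54 and −0.36 for serum, −0.16 and 0.16 without the 4 libraries, and −0.04 and −0.34 for genotype.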

How the data were processed

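cDNA was amplified with SMART-Seq v4, and the authors aligned paired reads to GRCm39 with HISAT2 2.1 and counted them per gene with featureCounts 1.5.2. The deposited values are a normalized signal per gene and library, the read count divided by a DESeq2 size factor. Every value was a whole multiple of 1 read (0.838 to 1.19 normalized counts) within 0.01, so whole reads were recovered for 100% of values. Groups come from the labels. Column numbers of 3 groups did not match them, so those libraries are numbered in column order.

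The 12645 of 14329 genes with 10 or more reads in 7 or more of 14 libraries were fitted with limma 3.58.1 (R 4.3.3) on log2(normalized count + 1), with a trend in the variance and 1 fit of 4 group means. The added 1 shrinks changes of low genes, whereas a library with few reads weighs heavily on a mean of logs. For serum in TASTPM, Itgax was −1.15 with limma, 0.0335 with edgeR and 0.027 with DESeq2. A gene was called at a Benjamini-Hochberg adjusted p below 0.05, over all genes tested, and a log2 fold change beyond 1. edgeR 4.0.16 and DESeq2 1.42.0 on the recovered reads, scaling, pseudocount, filters, a monocyte marker covariate and omission of libraries were alternatives. The test was tested on simulated data. P-values measure the spread between libraries, which the study counts as separate mice, and which may in part be technical.

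The members and gene lists were chosen with earlier results of these data known. All members are named, and a few other items are not reported here. All 7 comparisons were read for Trem2 and for members with an unadjusted p below 0.05 or groups that did not overlap in some comparison, and for the others the averaged ones. Exon lengths are GENCODE M39 unions. SMART-Seq reads carry no strand, so antisense overlap cannot be told apart.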

Additional observations from a re-analysis of the deposited data

Results flagged for a closer look

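Among 18 tests for a library far from the rest of its group, made for 9 members in the 2 groups of 4, 2 passed Dixon's critical value of 0.829, where chance gives about 1 in 20. Cst7 in WT K/BxN ST library 1 had a ratio of 0.846, at 459 normalized counts against 249.8 to 282 in the other libraries of the group. Cd9 in TASTPM K/BxN ST library 1 had a ratio of 0.845, at 11997 against 22075 to 23926. Both libraries were high in monocyte markers, and the part of those transcripts in these values was not tested.

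The serum difference of Cst7 was of opposite sign in WT and TASTPM. The difference between the genotypes was 2.01 on the log2 scale, with an unadjusted p of 0.00658 and an adjusted p of 0.999 in limma. It was in the direction of the mean in 4 of 4 K/BxN ST libraries of each genotype, which was the rule for the flag. The share of all genes that meet this rule was not counted.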

How the results depend on the processing

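No member was called in the 11 alternatives or 14 omissions of a library in any of the 7 comparisons. Log2 fold changes were compared with the main fit for 43 of the 63 member results. These were Trem2, Cst7, Itgax, Cd9 and Spp1 in the 7 comparisons, and Tyrobp, Apoe, Lpl and Ccl6 in the 2 averaged ones. Of 473 log2 fold changes of members in the alternatives, 446 kept their direction and 27 did not, and of 602 with 1 library left out, 557 did and 45 did not. No paired analysis was possible because the labels number the libraries through and no number is shared between groups.

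DESeq2 called 179 genes for serum averaged over genotypes, 11 for genotype averaged over sera, 127 for serum in WT, 18 for serum in TASTPM, 41 for genotype in Control ST and 12 for the interaction. The 1 gene called for serum in WT was lost, at 0, with a pseudocount of 8, with edgeR and without the 4 libraries high in monocyte markers. Without those 4 libraries, 1 gene was called for genotype averaged over sera and 1 in Control ST, and with the monocyte score as covariate 1 for averaged serum, 1 for averaged genotype, 2 for serum in WT and 3 for genotype in Control ST. With 1 library left out the counts ran from 0 to 9 for averaged serum, 0 to 2 for averaged genotype, 0 to 17 for serum in WT, 0 to 1 for serum in TASTPM, 0 to 11 for genotype in Control ST and 0 to 3 for the interaction. The highest came without WT Control ST library 3 for serum in WT (17) and for genotype in Control ST (11), and without WT Control ST library 2 for averaged serum (9). WT Control ST library 3 is the one high in red cell markers, whose part in these counts was not tested. The cause was not tested.

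For serum averaged over genotypes, Cst7 turned to 0.0062 with library totals, 0.0487 with edgeR and 0.0404 with DESeq2. Without the 4 libraries Tyrobp was −0.17, Apoe −0.30, Lpl −0.45, Itgax −0.33 and Ccl6 −0.17, and with the covariate −0.17, −0.34, −0.41, −0.38 and −0.17. For genotype averaged over sera, edgeR and DESeq2 gave Apoe −0.014 and −0.0138, Lpl 0.094 and 0.0912, and Itgax 0.35 and 0.35, and without the 4 libraries Cst7 was −0.0646 and Cd9 −0.10. For serum in WT, Cd9 was 0.0782 without the 4 libraries and 0.018 with the covariate, and Spp1 −0.13 with the covariate. For serum in TASTPM, Itgax was 0.0335 with edgeR and 0.027 with DESeq2. The interaction of Trem2 was −0.0094 with the covariate. For the other 20 results the log2 fold change was compared only without the 4 libraries, where 9 changed sign. Serum in WT went from 0.0894 to −0.0965 for Tyrobp, 0.96 to −0.30 for Apoe and 0.68 to −0.0888 for Ccl6. Serum in TASTPM went from 0.0349 to −0.24 for Tyrobp, 0.56 to −0.29 for Apoe, 0.28 to −0.98 for Lpl and 0.66 to −0.26 for Ccl6. The interaction went from −0.40 to 0.0087 for Apoe and from 0.19 to −1.07 for Lpl.

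With 1 library left out, averaged serum ran from −0.0579 to 0.20 for Tyrobp, −0.067 to 0.40 for Lpl and −0.22 to 0.12 for Cst7. Averaged genotype ran from −0.23 to 0.0342 for Trem2, −0.19 to 0.0699 for Tyrobp, −0.45 to 0.0466 for Lpl, −0.44 to 0.64 for Itgax, −0.11 to 0.14 for Cd9 and −0.0537 to 0.36 for Ccl6. Serum in TASTPM ran from −1.76 to 0.40 for Itgax. Genotype in Control ST ran from −0.36 to 0.0199 for Trem2, −0.0515 to 0.35 for Cd9 and −3.18 to 0.0046 for Spp1. Genotype in K/BxN ST ran from −0.30 to 0.22 for Trem2, −0.34 to 0.15 for Cd9 and −1.81 to 0.32 for Spp1. The interaction ran from −0.15 to 0.37 for Trem2, −0.48 to 0.0195 for Cd9 and −0.66 to 2.53 for Spp1. Spp1 and Itgax each rest on 3 reads in 1 library, the smallest number taken as detectable, so their fitted changes depend on the pseudocount.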
